A study of Arabidopsis thaliana with 13 samples.

Results

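Tubulins are the building blocks of microtubules. A microtubule is a hollow polymer of dimers, each made of an α-tubulin and a β-tubulin, and in plant cells it guides the deposition of cellulose, pulls chromosomes apart and places the new wall at cell division. Dry *Arabidopsis* seeds are dormant or quiescent, and microtubule arrays are rebuilt in the embryo when imbibed seeds return to growth, so tubulin transcripts are a familiar readout of that return. The genes described here were 7 β-tubulin genes (*TUB1*, *TUB2*, *TUB3*, *TUB4*, *TUB5*, *TUB6* and *TUB8*) and 3 α-tubulin genes (*TUA2*, *TUA3* and *TUA4*), selected by locus identifier. They were 10 of the 37336 genes counted.

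The seeds were of the Col-0 accession, and those used for dormancy induction were after-ripened and stored dry. In the seed pool experiment, dry seeds of 4 seed pools were each sorted into small, medium and large seeds, which gave 12 libraries without any imbibition treatment. In the single-seed experiment, small or large seeds were kept on wet paper in the dark at 30 °C to induce secondary dormancy, and each seed was barcoded on its own. Seeds were taken after 3 days of this treatment (3d), or after 7 days followed by 24 h of recovery in constant light at a lower temperature (7d24h), with 3 libraries of 32 seeds for each of the 4 combinations of size and treatment. The 2 treatments differ in the length of induction and in the recovery step with its light and temperature, which cannot be told apart.

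Each library was a 3′ RNA-seq library, in which reads start near the transcript end and were counted by molecular identifier, so a count does not grow with transcript length and levels of different genes were compared without dividing by length. Levels are given in CPM, counts relative to the total of the library, after scaling by trimmed mean of M-values (TMM) factors. The factors were computed separately for dry and for single-seed libraries, so levels of the 2 experiments are not on one scale. Dry libraries held 554305 to 2079317 counts, and single seeds 3962 to 463684 with a median of 100856. Of the 384 seeds, 6 had fewer than 20000 counts. The 6 seed storage genes used as markers of seed tissue were each detected in every group, and their summed share of counts was 6.09% to 14.5% in dry seeds, 15.0% to 16.0% at 3d and 0.975% to 1.77% at 7d24h. The 2 endosperm markers were detected in every group too, with 2.51% to 4.24% of counts in dry seeds and at most 0.0268% in single-seed libraries. Whole seeds were ground, so more cells with a transcript and more transcript per cell cannot be told apart in any value below. Libraries were the replicates, seeds of a library were not, and p-values measure the spread between these libraries, which may be technical for single seeds since no label names separate sources for the 3 libraries of a condition.

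Several members are near copies of each other, and the sequences show how far reads could separate them. *TUB2* (AT5G62690) spans chr5:25181296-25183811 on the plus strand of TAIR10.1, and *TUB3* (AT5G62700) spans chr5:25184258-25186777 on the same strand, 446 bases further on. Their coding sequences were 97.63% identical, with 32 differences over 1353 bases. The last 60 coding bases of each, in the last coding exon, differ at 2 bases, which are in capitals:
TUB2, chr5:25183442-25183501, plus strand: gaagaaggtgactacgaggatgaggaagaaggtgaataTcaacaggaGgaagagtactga
TUB3, chr5:25186367-25186426, plus strand: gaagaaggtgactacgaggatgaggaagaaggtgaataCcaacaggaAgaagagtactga

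The α-tubulin genes *TUA2* (AT1G50010, chr1:18517586-18520000, plus strand) and *TUA4* (AT1G04820, chr1:1356084-1358547, minus strand) lie far apart on chromosome 1 and were 96.6% identical over the coding sequence, with 46 differences. Their last 60 coding bases, also in the last coding exon, differ at the 4 bases in capitals:
TUA2, chr1:18519670-18519729, plus strand: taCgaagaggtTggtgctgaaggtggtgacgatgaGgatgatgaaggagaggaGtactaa
TUA4, chr1:1356421-1356480, minus strand: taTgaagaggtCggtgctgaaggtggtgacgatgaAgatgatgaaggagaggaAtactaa

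Past the stop codon the copies were far less alike. The last 300 transcript bases of *TUB2* and *TUB3* were 54.12% identical in alignment, and those of *TUA2* and *TUA4* 45.98%. For *TUA2* this window includes the last coding bases, since its stop codon lies under 300 bases from the transcript end. For each of the 10 members, all 246 stretches of 55 bases, the read length, in the last 300 transcript bases occurred once in the genome. Reads from these ends therefore name the gene, whereas a read that falls further inside the coding sequence could fit a near copy, and the counts of *TUB2* with *TUB3* and of *TUA2* with *TUA4* are uncertain to that extent. *TUA3* (AT5G19770, chr5:6682420-6684744, minus strand) has a near copy, *TUA5*, among the tubulin genes outside the 10, with 97.86% coding identity at a distance of 2285 bases. *TUA6*, also outside the 10, was 95.12% identical to *TUA2* and 95.71% to *TUA4* over the coding sequence. Counts of these genes are uncertain in the same way.

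In dry seeds the 10 genes split into a detected and a barely detected set. *TUB2*, *TUA3*, *TUB3*, *TUB4* and *TUA2* had mean levels of 10.3 to 40.5 CPM in each size, whereas *TUB1*, *TUB5*, *TUB6*, *TUB8* and *TUA4* had 0 to 4 counts in each of the 12 libraries. *TUB1* had 0 counts in all 12. In small and in medium seeds *TUA3* ranked above *TUB2*, and in large seeds *TUB2* ranked above *TUA3*, but the ranges of these neighbours overlapped in all 3 sizes. In each size the range of the least abundant of the 5 detected genes lay above that of the next gene.

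**Figure D1:**
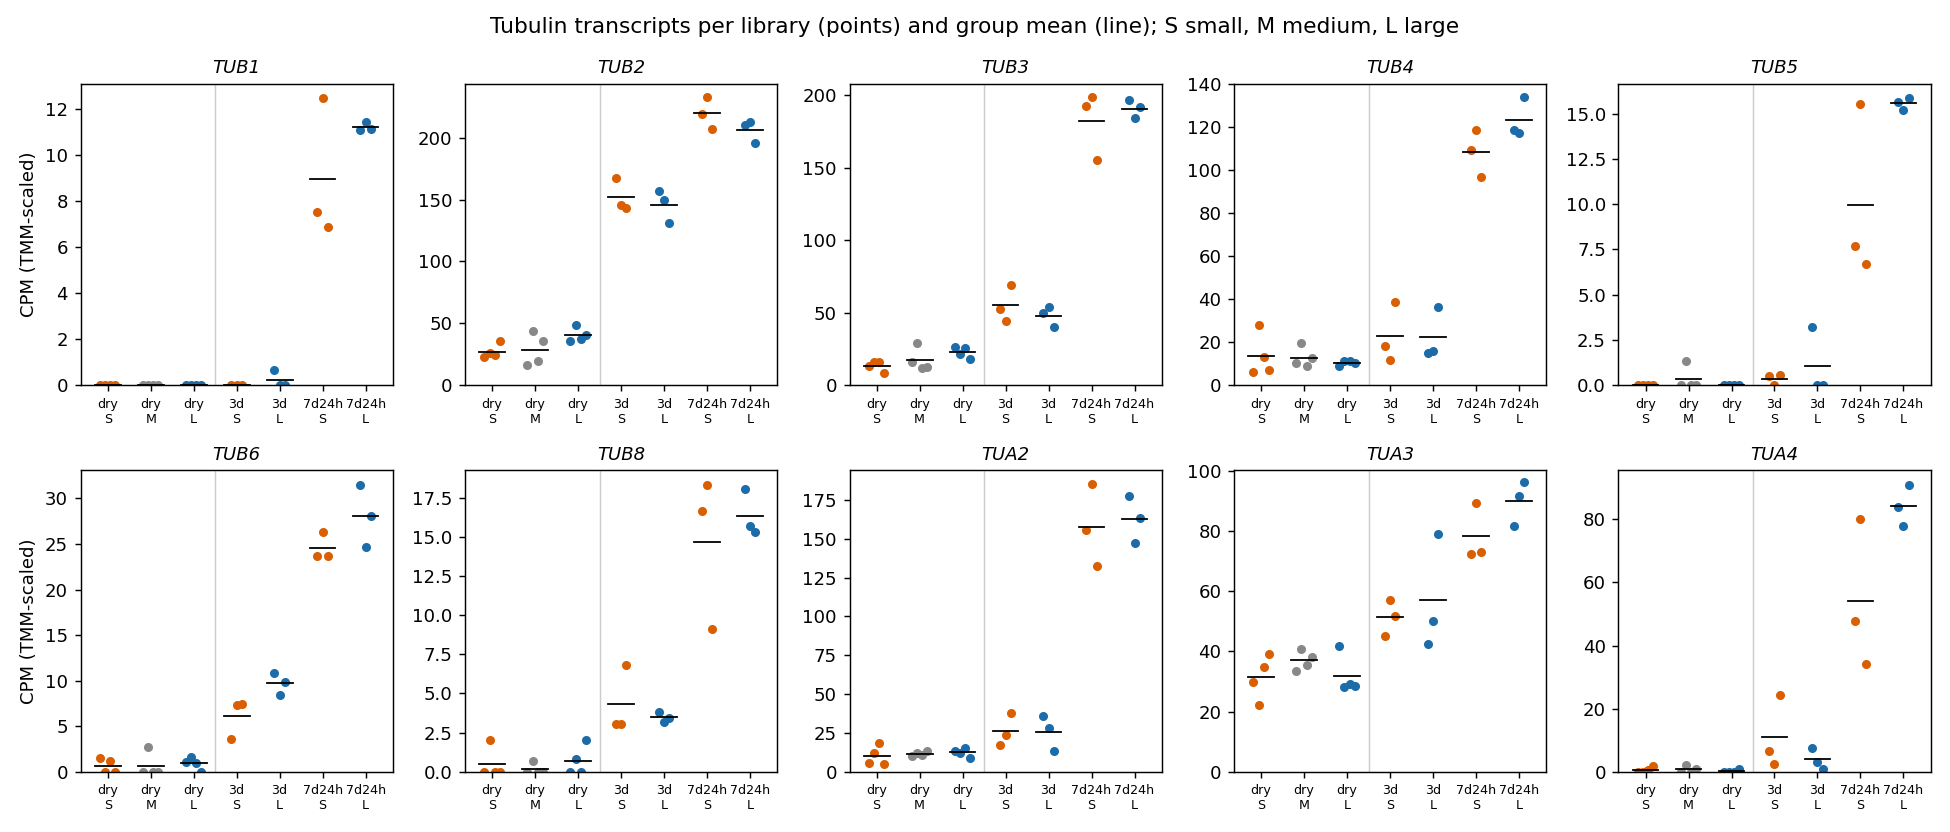
Level of each of the 10 tubulin genes in every library, in CPM with TMM factors on linear axes that start at 0 and differ between genes, for the 3 sizes of dry seed (4 seed pools each) and the 4 single-seed conditions (3 libraries each). Points are libraries and lines are group means. Dry and single-seed libraries have separate TMM factors, so their levels are not on one scale. *TUB1* had 0 counts in all 12 dry libraries, and *TUB2* lay between 131 and 168 CPM in the 6 libraries at 3d and between 196 and 233 CPM in the 6 at 7d24h.

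The comparison of dry seed sizes asks whether transcripts stored in the seed differ with its size. *TUB2*, a β-tubulin abundant throughout the plant, measured 22.3, 26.1, 24.1 and 35.6 CPM in the small seeds of pools 1 to 4, 16.1, 43.5, 19.2 and 35.5 CPM in medium seeds, and 35.3, 48.7, 37.2 and 40.6 CPM in large seeds. Small and large seeds overlapped narrowly, at the highest small and the lowest large library, and medium seeds spanned both. The difference of small from large seeds was -0.64 on the log2 scale (SE 0.24, n = 4 pools per size), with an adjusted p of 0.0639 in edgeR's quasi-likelihood test.

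*TUB3*, its neighbour, which encodes the same β-tubulin protein, measured 13.4, 16.1, 15.6 and 8.48 CPM in small seeds and 26.5, 21.7, 25.5 and 18.3 CPM in large seeds. The 2 sizes did not overlap. Its difference was -0.73 (SE 0.29), with an adjusted p of 0.0835 in the same test. The ratio of *TUB2* to *TUB3* counts ran from 1.00 to 4.20 over the 12 dry libraries.

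The other 3 tested members, *TUB4*, *TUA2* and *TUA3*, differed between small and large seeds by 0.29 (SE 0.36), -0.07 (SE 0.33) and 0.05 (SE 0.21). *TUA3* had means of 31.4 ± 7.28, 37.0 ± 3.23 and 31.9 ± 6.71 CPM (SD, n = 4) in small, medium and large seeds, and *TUA2* of 10.4 ± 6.29, 11.7 ± 1.52 and 12.5 ± 2.56 CPM. *TUB4* had 13.5 ± 10.3, 12.8 ± 4.72 and 10.3 ± 1.09 CPM. These differences were smaller than the spread between pools.

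No member passed the threshold in dry seeds, where edgeR's quasi-likelihood test called 14.7% of all tested genes between small and large, 3.51% between small and medium and 0.146% between medium and large. Of the 5 tested members, the unadjusted p was under 0.05 for 2, 0 and 1 genes in these comparisons, and DESeq2 called 0 in each. The seed pool as a block changed no member's call, although it raised the genes called between medium and large from 12 to 24 of 8234. The call of *TUB2* depended on the setting: its adjusted p was 0.0365 with upper-quartile factors, 0.0318 in a fit of the small and large libraries alone, 0.0411 without small pool 4, and up to 0.221 over the 8 fits that left out a library, and with the libraries thinned to the shallowest it was 0.4925 (difference -0.35), the highest over these alternatives. With library totals in place of TMM factors, chosen after seeing the data, the median of all genes moved by -0.40, 33.5% of all genes were called, and *TUB2* (-1.03, adjusted p = 0.00158) and *TUB3* (-1.12, adjusted p = 0.00306) were both called. Seed storage transcripts moved with size as well, with a summed share of 10.0% to 14.5% in small seeds, 6.77% to 10.7% in medium seeds and 6.09% to 6.84% in large seeds, and 6 of 6 storage genes higher in small than in large seeds. Their part in the tubulin differences was not tested.

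Of the 7 tubulin genes outside the 10, 4 were tested in dry seeds. *TUA1*, an α-tubulin best known from pollen, was higher in small than in large seeds (1.67, SE 0.37, adjusted p = 0.00142, edgeR), with 22.3 ± 5.75 against 7.62 ± 4.65 CPM (SD, n = 4). *TUA5*, which encodes the same α-tubulin protein as *TUA3*, was lower in small seeds (-0.64, SE 0.22, adjusted p = 0.0389), with 27.9 ± 5.94 against 41.8 ± 7.73 CPM. *TUB7* and *TUB9* were not called. Of the tubulin folding factors, chaperones and cofactors that assemble the dimer, 0 of 6 tested were called, beside 14.7% of all genes. Among microtubule-associated proteins 1 of 6 was called, *MOR1*, which promotes microtubule growth (0.62 higher in small seeds), and among actins 1 of 3, *ACT8* (0.83 higher in small seeds).

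The single-seed experiment compares small and large seeds at each of the 2 points, and the points with each other. All 10 members reached the mean of at least 1 count per seed that was required for testing. Of them, 5 (*TUB1*, *TUB5*, *TUB6*, *TUB8* and *TUA4*) reached it only through the 7d24h seeds, where they were high, and so had to differ between the points. The other 5 (*TUB2*, *TUB3*, *TUB4*, *TUA2* and *TUA3*) reached it in both 3d groups too. A filter on genes whose share followed the share of intergenic reads then removed *TUB3*, whose correlation with that share was 0.63 over large 3d seeds, so *TUB3* was tested in the fit without this filter.

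At 3d *TUB2* was the highest of the 10 genes in both sizes. It measured 168, 146 and 143 CPM in the 3 small libraries and 157, 150 and 131 CPM in the 3 large ones, above every other member's range. At 7d24h it measured 219, 233 and 207 CPM in small and 211, 213 and 196 CPM in large libraries. Every library at 7d24h was above every library at 3d. The rise was 0.53 in small seeds (SE 0.11, adjusted p = 0.000393, n = 3 libraries per group) and 0.50 in large seeds (SE 0.11, adjusted p = 0.000538) on the log2 scale, in edgeR's quasi-likelihood test. The large-seed call was lost when each seed was thinned to 20000 counts (0.31, adjusted p = 0.107).

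*TUB3* started lower and rose further than its neighbour. Its 3d levels were 52.2, 44.3 and 68.8 CPM in small and 50.0, 53.6 and 39.99 CPM in large libraries, and its 7d24h levels were 192.3, 198 and 155 CPM in small and 197, 184 and 191.5 CPM in large libraries. Again the points did not overlap. In the fit without the intergenic filter it rose by 2.14 (SE 0.17, adjusted p = 1.17e-07) in small and 2.49 (SE 0.18, adjusted p = 2.01e-08) in large seeds, where *TUB2* rose by 0.95 (SE 0.11) and 0.99 (SE 0.11). These rises are on another scale than the levels, which use the factors of the filtered fit. With those factors the *TUB3* ratio of 7d24h to 3d was 3.34 in small and 4.01 in large seeds, beside 4.40 and 5.61 in the unfiltered fit. The ratio of *TUB2* to *TUB3* counts was 2.083 to 3.29 in the 6 libraries at 3d and 1.02 to 1.33 in the 6 at 7d24h, without overlap.

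The sequences upstream of both genes are printed because the neighbours differed in level at 3d and in their change. The 250 bases before each annotated start in TAIR10.1, from RefSeq, are given with matches to the searched motifs in capitals:
TUB2, chr5:25181046-25181295, plus strand: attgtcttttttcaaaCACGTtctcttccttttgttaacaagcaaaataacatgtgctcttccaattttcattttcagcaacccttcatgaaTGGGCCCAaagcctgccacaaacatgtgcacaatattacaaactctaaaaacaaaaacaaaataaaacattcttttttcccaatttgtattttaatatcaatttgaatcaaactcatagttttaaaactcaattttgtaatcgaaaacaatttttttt
TUB3, chr5:25184008-25184257, plus strand: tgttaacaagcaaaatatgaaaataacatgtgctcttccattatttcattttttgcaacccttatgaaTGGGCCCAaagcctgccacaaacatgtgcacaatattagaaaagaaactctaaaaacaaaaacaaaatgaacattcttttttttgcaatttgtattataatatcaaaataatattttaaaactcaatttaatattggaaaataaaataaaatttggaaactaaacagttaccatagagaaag

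These windows were 65.51% identical over 287 aligned positions. The motifs searched on both strands were AAACCCTA (the telo box, in 4.49% of 27443 promoters), TGGGCC (13.7%), TGGGCT (12.3%), ACGTG (the core of abscisic acid response elements, 22.9%) and the palindrome TGGGCCCA (0.78%), which contains TGGGCC on each strand. TGGGCCCA occurred once in each window, 158 bases before the *TUB2* start and 182 before the *TUB3* start, and in 0 of the other members' windows. *TUB2* alone of the pair also held CACGT, the reverse strand of ACGTG. A match is a description of letters and not of a bound site.

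The α-tubulins changed their order between the points. *TUA2* measured 17.2, 23.6 and 37.5 CPM in small and 35.9, 28.4 and 13.3 CPM in large libraries at 3d, and 156, 185 and 132 CPM in small and 178, 147 and 163 CPM in large libraries at 7d24h. The rise was 2.60 (SE 0.25, adjusted p = 2.22e-07) in small and 2.68 (SE 0.25, adjusted p = 1.26e-07) in large seeds. *TUA3* was above *TUA2* at 3d in every library and below it at 7d24h in every library, with *TUA2* to *TUA3* count ratios of 0.169 to 0.848 and then 1.61 to 2.17.

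*TUA3* measured 45.1, 57.0 and 51.7 CPM in small and 42.3, 50.0 and 79.0 CPM in large libraries at 3d, and 72.5, 89.3 and 72.9 CPM in small and 81.7, 91.6 and 96.4 CPM in large libraries at 7d24h. The large groups were close to each other, 79.0 against 81.7 CPM at their nearest. Its rise was 0.61 (SE 0.18, adjusted p = 0.00622) in small and 0.64 (SE 0.17, adjusted p = 0.00357) in large seeds, and the large-seed call was lost in seeds thinned to 20000 counts (0.29, adjusted p = 0.293).

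*TUA4*, which encodes the same α-tubulin protein as *TUA2*, measured 6.59, 2.43 and 24.5 CPM in small and 7.69, 3.16 and 0.987 CPM in large libraries at 3d, and 47.8, 80.1 and 34.2 CPM in small and 83.9, 78.0 and 91.0 CPM in large libraries at 7d24h. The third small library at 3d stood apart from the other 5 at that point. All 43 of its *TUA4* counts came from 4 of its 32 seeds, with 21, 12, 5 and 5 counts. The same 4 seeds held 18, 12, 9 and 6 *TUA2* counts and 24, 16, 10 and 8 *TUB3* counts, and their storage share was 8.68%, 15.6%, 12.8% and 13.1%, beside a median of 15.3% over small seeds at 3d. *TUA4* rose by 2.28 (SE 0.45, adjusted p = 0.000329) in small and 4.51 (SE 0.54, adjusted p = 1.81e-06) in large seeds. It was tested only because of its 7d24h counts, so the direction of these rises was fixed in part by the filter and their p-values are no separate evidence of it. The difference of these rises was -2.23 (SE 0.84), with an unadjusted p of 0.0175 and an adjusted p of 0.418, so it did not pass the threshold. Without that library the small-seed rise was 3.54 (adjusted p = 1.34e-05), and without the third library of both 3d groups, an alternative chosen after seeing the data, the difference of the rises was -0.47 (adjusted p = 0.92). Without the first large library at 3d the large-seed rise was 5.35.

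*TUB4* measured 18.3, 11.5 and 38.7 CPM in small and 14.7, 15.8 and 36.5 CPM in large libraries at 3d, where the third library was the highest in both sizes. At 7d24h it measured 109, 119 and 96.8 CPM in small and 119, 117 and 134 CPM in large libraries. The points did not overlap, and the rise was 2.24 (SE 0.29) in small and 2.43 (SE 0.29) in large seeds, with adjusted p of 5.47e-06 and 1.70e-06. Without the third small library at 3d the small-seed rise was 2.84.

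*TUB1*, a β-tubulin known to be repressed by light in seedlings, had 0 counts in the 3 small libraries at 3d and 1 count in the 3 large ones. At 7d24h it had 7.52, 12.5 and 6.89 CPM in small libraries (183 counts) and 11.1, 11.4 and 11.1 CPM in large libraries (243 counts). With a floor of 3 counts over the group, its level was at least 16.6-fold higher at 7d24h in small seeds. In large seeds the ratio was 61.5, with an exact 95% counting interval of 10.9 to 2438. *TUB5*, another β-tubulin, gave 2 counts in small and 5 in large libraries at 3d against 206 and 339 at 7d24h. The ratios were 28.0 (interval 7.64 to 232) and 17.2 (7.28 to 53.2). All 5 of the large-seed *TUB5* counts at 3d, and the single *TUB1* count, came from the first large library, and leaving that library out took the fitted rises from 4.05 to 9.17 and from 5.73 to 8.70. Leaving out the second or the third took that of *TUB5* to 3.45 and 3.40. These intervals cover counting error only.

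*TUB6*, a β-tubulin known as cold-responsive, averaged 6.07 ± 2.19 CPM (small) and 9.73 ± 1.25 CPM (large) at 3d, and 24.6 ± 1.51 and 28.1 ± 3.41 CPM at 7d24h (SD, n = 3). *TUB8*, a β-tubulin of vascular tissue, averaged 4.30 ± 2.19 and 3.49 ± 0.346 CPM, and then 14.7 ± 4.90 and 16.4 ± 1.48 CPM. Their rises were 2.04 (SE 0.23) and 1.53 (SE 0.20) for *TUB6* and 1.79 (SE 0.34) and 2.23 (SE 0.35) for *TUB8*, in small and large seeds.

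In each size, 9 of 9 members in the filtered fit were called higher at 7d24h, where 32.8% of all tested genes were called higher in small seeds and 34.4% in large seeds. Without the intergenic filter 10 of 10 were called, beside 34.9% and 36.7% of all genes. For the 5 members that reached the filter only through 7d24h seeds this count is fixed in part by the filter, and the 5 others carry the comparison through the values given above. The plot of rises shows *TUB2* and *TUA3* with the smallest values in both sizes and *TUB1* with the highest fitted one.

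**Figure D2:**
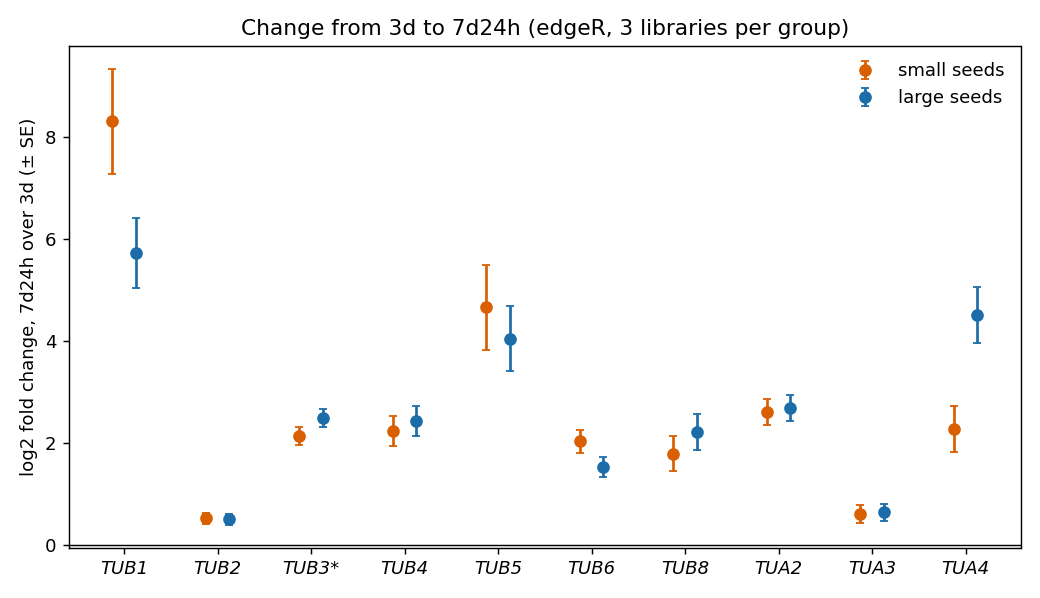
Log2 change of each tubulin gene from 3d to 7d24h in small (orange) and large (blue) seeds, with bars of 1 SE from the edgeR fit of 12 libraries; *TUB3* comes from the fit without the intergenic filter. That fit has another scale, on which *TUB2* rose by 0.95 and 0.99, so the *TUB3* points are not level with the others. *TUB2* (0.53 and 0.50) and *TUA3* (0.61 and 0.64) rose least, and the points for *TUB1* and *TUB5* rest on 0 to 5 counts per group at 3d.

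The scale of these rises depended on what the libraries were scaled to. The 20 most abundant genes took 34.1% to 38.0% of counts at 3d and 6.66% to 9.29% at 7d24h, and TMM factors were 0.614 to 0.761 and 1.35 to 1.53. With library totals, chosen after seeing the data, the median of all genes moved by 1.02 in small and 1.07 in large seeds, *TUB2* rose by 1.58 and 1.62, and 9 of 9 members were called higher in each size, beside 75.4% and 74.5% of all genes called higher. Relative to the median of the 6754 genes in the filtered fit the *TUB2* rise was 0.56 and 0.55, close to its values with TMM factors in that fit. The rise depended on the filter as well. Without the intergenic filter, with TMM factors, *TUB2* rose by 0.95 and 0.99, beside a median of 0.04 and 0.03 over 12078 genes. Together the 10 genes had 193 to 287 CPM of unscaled library totals at 3d and 1004 to 1446 CPM at 7d24h. *TUB2* made up 37.8% to 53.4% of the members' counts at 3d and 20.8% to 27.8% at 7d24h. Seed storage transcripts went the other way, from a share of 15.0% to 16.0% to 0.975% to 1.77%, and their part in the rises was not tested.

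Between small and large seeds no member passed the threshold at either point. At 3d edgeR called 0 of 9 members beside 0.326% of all genes, with 1 at an unadjusted p under 0.05 (*TUB6*, -0.69, adjusted p = 0.424) and 0 by DESeq2. At 7d24h it called 0 of 9 beside 1.27% of all genes, with 0 at an unadjusted p under 0.05 and 0 by DESeq2. The size-by-time interaction gave 0 of 9 beside 0.296%, with 1 at an unadjusted p under 0.05 (*TUA4*) and 0 by DESeq2. *TUB1*, *TUB5*, *TUB6*, *TUB8* and *TUA4* averaged under 1 count per seed at 3d. *TUB1* and *TUB5* had 0 to 5 counts per group there (SE of the size difference 2.62 and 1.59). For these 2 genes the absence of a call at 3d or for the interaction says little. In the fit without the intergenic filter, where all genes were called at 0.48%, 3.28% and 0.546%, *TUB3* differed by 0.21 (SE 0.19) at 3d and -0.14 (SE 0.15) at 7d24h, with an interaction of -0.35 (SE 0.25), none of them called.

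At 7d24h *TUB2* differed between the sizes by 0.09 (SE 0.10), and *TUA2* by -0.04 (SE 0.20). The furthest from 0 were *TUA4* (-0.63, SE 0.30) and *TUB5* (-0.62, SE 0.30), both with an adjusted p of 0.314. Each was lowest in small libraries 1 and 3, and in *TUB5* the second small library (15.5 CPM) lay within the range of the large ones (15.2 to 15.9 CPM). Without that small library *TUB5* was called (-1.11, adjusted p = 0.0429).

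The 7 other tubulin genes mostly followed the same direction with time. Of 5 tested, 4 were called higher at 7d24h in both sizes, beside 32.8% of all genes in small and 34.4% in large seeds. These were *TUA6* (5.08 and 5.33), *TUB7* (1.38 and 1.71), *TUB9* (1.04 and 1.06) and *TUA5* (0.70 and 0.71). *TUA6*, an α-tubulin whose coding sequence is 95.71% identical to that of *TUA4*, went from 6.12 ± 6.20 to 207 ± 58.4 CPM in small and from 6.08 ± 3.13 to 238 ± 10.6 CPM in large seeds (SD, n = 3), beside 220 ± 12.9 CPM and 206 ± 9.36 CPM for *TUB2* at 7d24h. *TUBG2*, a γ-tubulin of the microtubule nucleation complex, was not called in this filtered fit. Without the intergenic filter 6 of 6 tested, with *TUBG2* among them, were called higher in each size, beside 34.9% and 36.7% of all genes. *TUA1*, higher in small dry seeds, did not pass the filters and had means of 4.71 to 9.64 CPM in the 4 conditions.

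Genes that fold tubulin or bind microtubules were called in both directions in the filtered fit, and so were all genes. Over all 6754 genes, 4449 were called in small seeds, 2216 of them higher, and 4723 in large seeds, 2323 of them higher. With TMM factors, of 7 tested folding genes, 2 were called higher and 3 lower in small seeds, and 3 higher and 4 lower in large seeds. *PFD1*, a prefoldin subunit that hands nascent tubulin to the chaperonin, rose by 1.46 and 1.99, *PFD5*, another subunit, rose by 0.46 and 0.40, and *TFCA*, a cofactor that holds β-tubulin, fell by 0.62 and 0.84. *TFCD*, another folding cofactor, fell by 0.54 and 0.81. Of 13 microtubule-associated proteins, 3 were higher and 4 lower in small seeds, and 1 higher and 6 lower in large seeds, with the bundling proteins *MAP65-2* at 4.64 and 6.65 and *MAP65-1* at -0.48 and -0.63, *GCP3*, a nucleation factor, at -0.56 and -1.39, and *NEDD1*, which recruits the γ-tubulin complex, at -0.77 and -0.73. Of 3 actins, 3 were called higher in small and 2 in large seeds, with *ACT2* at 1.71 and 1.53 and *ACT8* at 1.38 and 1.65, and *ACT7* at 0.32 in small seeds (0.21 in large seeds, not called). The lower calls depended on the scaling: with library totals the median moved by 1.02 and 1.07, and 75.4% and 74.5% of all genes were called higher. There 7 and 6 folding genes and 11 and 10 microtubule-associated genes were called higher and 0 lower. *TFCA* was at 0.43 and 0.27, *TFCD* at 0.52 and 0.29, *NEDD1* at 0.29 and 0.37, *MAP65-1* at 0.58 and 0.48, and *GCP3* at 0.48 and -0.29. The lower calls depended on the intergenic filter too. Without it, with TMM factors, 6 of 10 folding genes were called higher and 0 lower in small seeds, and 6 higher and 1 lower in large seeds. Of 19 microtubule-associated genes, 6 were higher and 2 lower in each size. Over all genes 34.9% in small and 36.7% in large seeds were called higher in that fit. Between the sizes, 0 genes of these lists were called at 3d or at 7d24h, beside 0.326% and 1.27% of all genes in the filtered fit.

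The spread between seeds is the question that single-seed libraries address. At 7d24h, 95 small and 96 large seeds had at least 20000 counts. *TUB2* was found in every one of them, at 110 to 545 CPM with a median of 253 in small seeds and at 102 to 545 CPM with a median of 264 in large seeds, unscaled within each seed. *TUB3* ran from 57.4 to 712 CPM with a median of 136 in small seeds and from 0 to 630 CPM with a median of 155 in large seeds. *TUB4* ran from 55.8 to 335 CPM and from 34.0 to 401 CPM, with medians of 116 and 159. *TUA3* ran from 19.4 to 238 CPM and from 18.0 to 334 CPM, with medians of 86.6 and 120.

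*TUA2* had medians of 93.2 and 99.3 CPM but upper quartiles of 132 and 254 and maxima of 699 and 649 CPM. *TUA4* had medians of 7.41 and 14.2 CPM, maxima of 460 and 644 CPM, and no count in 39 of 95 small and 24 of 96 large seeds. The 10 highest seeds held 67.6% of the summed *TUA4* CPM in small and 61.6% in large seeds, whereas for *TUB2* they held 17.7% and 17.1%, beside 10.5% and 10.4% if seeds were even. *TUA4* transcripts were thus gathered in few seeds, and those of *TUB2* spread over all.

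*TUB1* had no count in 69 small and 65 large seeds, *TUB5* in 62 and 49, *TUB8* in 41 and 34, and *TUB6* in 5 and 8. At a median depth of 134462.5 counts in small and 128786.5 in large seeds at this point, over all 96 seeds of each size, a seed without a count can hold up to 3 counts' worth of transcript, so these seeds were below detection and not shown to lack the transcript. *TUB1* and *TUB5* reached at most 109 and 156 CPM in a seed. The distributions are drawn in the plot of single seeds.

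**Figure D3:**
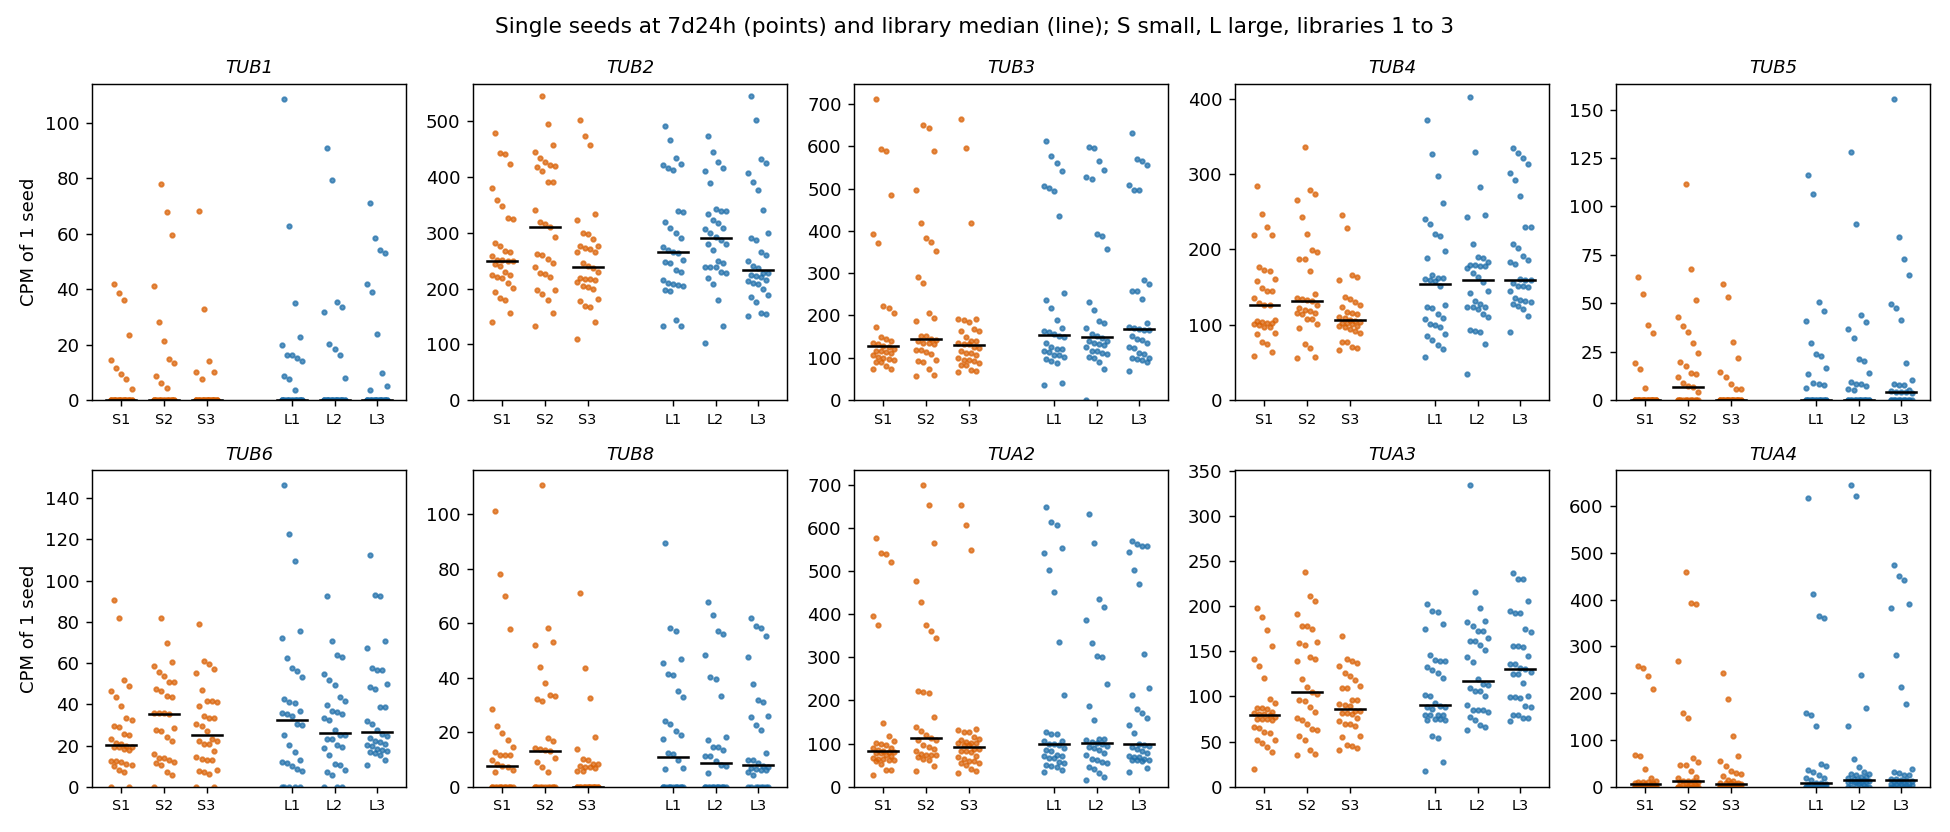
Level of each tubulin gene in each seed with at least 20000 counts at 7d24h, in CPM of the seed's own total, for 95 small and 96 large seeds; points are seeds, shown by library, lines are library medians, and the linear axes differ between genes. *TUB2* lay between 102 and 545 CPM in all 191 seeds, whereas *TUA4* ran from 0 to 644 CPM with medians of 7.41 and 14.2.

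The excess coefficient of variation (CV), the spread between the seeds of a library beyond what counting gives, put this on one scale, as the mean over 3 libraries with seeds scaled to their total. *TUB2* had 0.289 in small and 0.289 in large seeds at 7d24h, and *TUA3* 0.305 and 0.311, and *TUB4* 0.307 and 0.374, near the median of all genes measured (0.251 and 0.272). *TUB6* was higher, at 0.432 and 0.604. *TUB3* had 0.786 and 0.723, *TUA2* 1.03 and 0.951 and *TUA4* 1.91 and 1.92, above the 95th percentile of all genes, which was 0.674 over 10918 genes in small and 0.713 over 11174 genes in large seeds. *TUB8*, *TUB5* and *TUB1* reached 0.984, 1.73 and 1.86 in large seeds, also above it, and were below the level required for this ranking in at least 1 small library.

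The near copies differed in this measure in every library. *TUB2* ran from 0.231 to 0.341, *TUB3* from 0.695 to 0.828, *TUA2* from 0.889 to 1.13 and *TUA4* from 1.62 to 2.23 over the 6 libraries, so the ranges of these 4 genes did not overlap. *TUA3* (0.131 to 0.408) and *TUB4* (0.190 to 0.423) overlapped with *TUB2*.

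**Figure D4:**
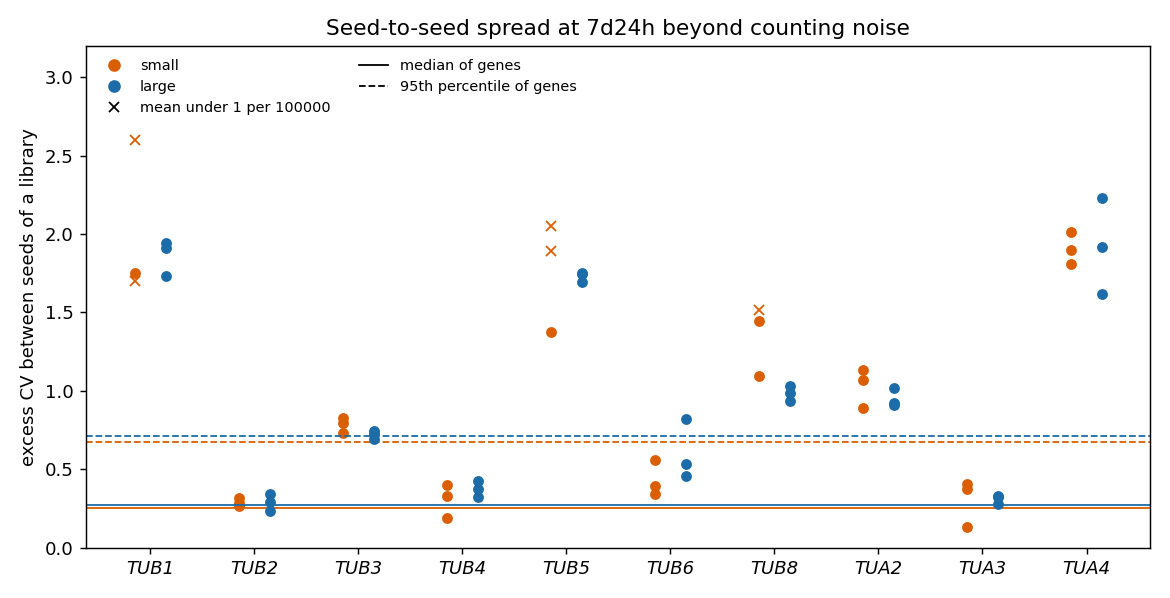
Excess CV between the seeds of a library at 7d24h for each tubulin gene, 1 point per library (3 small and 3 large), with lines at the median (solid) and the 95th percentile (dashed) of all genes measured in each size and crosses where the gene was below the level required for ranking. *TUB2* lay between 0.231 and 0.341 and *TUA4* between 1.62 and 2.23, without overlap.

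Whether the spread changed with time or size could be tested in few members. At 20000 counts per seed only *TUB2* reached a mean of 1 count in all 12 libraries. Its log2 spread changed by 0.07 (SE 0.72, adjusted p = 0.979) from 3d to 7d24h in small and by 1.10 (SE 0.72, adjusted p = 0.437) in large seeds, and differed by -0.53 (SE 0.72, adjusted p = 1) between the sizes at 7d24h. Limma's moderated test called 0 of 1 member in each, with 0 at an unadjusted p under 0.05, beside 1.32%, 0% and 0% of 454 genes. At 3d the excess CV of *TUB2* over all counts was 0 in 3 of 6 libraries, where the variation was no larger than counting gives.

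Further fits were chosen after seeing the data. With the 7d24h libraries alone, *TUB2*, *TUB4*, *TUA2* and *TUA3* were tested and 0 were called between the sizes (0 at an unadjusted p under 0.05), beside 0.658% of 1519 genes. With all counts and no intergenic filter, *TUB2*, *TUB3* and *TUA3* were tested, and 0 were called in small seeds beside 0.853% of 7500 genes and 0 in large seeds beside 5.04%. The unadjusted p was under 0.05 for *TUB3* (2.12, SE 0.88, adjusted p = 0.225) and *TUA3* (1.23, SE 0.52, adjusted p = 0.229) in small seeds and for *TUB2* (1.54, SE 0.54, adjusted p = 0.118) in large seeds.

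Seeds that were high for one member tended to be high for the next, most of all among the members with a wide spread. Over the 191 seeds at 7d24h, thinned to 20000 counts and centred within their library, the 15 pairs of the 6 members with enough counts had Pearson correlations of 0.237 to 0.672, given here as a description since seeds share libraries. The pair *TUA2* and *TUA4* had the highest (0.672), followed by *TUB3* with *TUA4* (0.575) and *TUB3* with *TUA2* (0.523), and *TUA2* with *TUA3* had the lowest (0.237). *TUB2* with *TUB3* stood at 0.374. In large seeds alone *TUA2* with *TUA4* had 0.737 and in small seeds alone 0.586. Mean thinned counts of these members ran from 1.09 (*TUA4*, small seeds) to 5.85 (*TUB2*, large seeds). Counting noise was not removed from the correlations, and it weighs most on members with a narrow spread. Its part in their order was not tested.

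**Figure D5:**
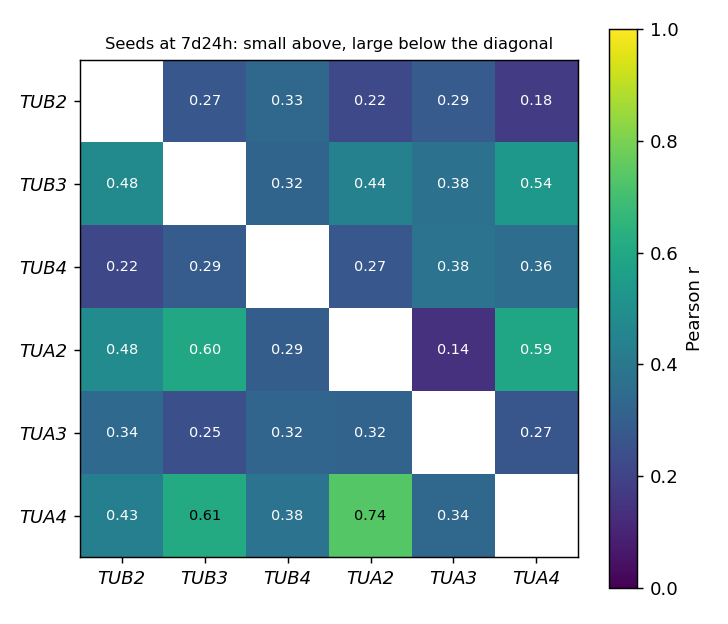
Pearson correlation between tubulin genes over single seeds at 7d24h, from log2 of thinned counts centred within each library, with small seeds above and large seeds below the diagonal. The pair *TUA2* and *TUA4* had the highest value in each size, 0.586 in small and 0.737 in large seeds.

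The same seeds differed in their bulk composition. Their storage share ran from 0.0212% to 4.24% in small and from 0.0163% to 3.01% in large seeds. The share correlated at -0.81 with *TUA4*, -0.72 with *TUA2* and -0.71 with *TUB3*, and at -0.46 with *TUB2*, -0.42 with *TUB4* and -0.41 with *TUA3*. The summed share of 343 ribosomal protein genes correlated at 0.77, 0.71 and 0.74 with the first 3 and at 0.48, 0.41 and 0.46 with the others. Seed depth correlated with the 6 genes at 0.17 to 0.44, and the intergenic share at -0.36 to -0.67. All these points share library, seed and total, and the part of composition and depth in the pair correlations was not tested. The part of counting noise in the correlations with these shares was not tested either.

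For *TUB2*, the member with the most thinned counts, the 5 genes with the closest pattern among 4090 other genes over these 191 seeds were a ribosomal S8e protein gene (AT5G20290, 0.52), a ribosomal S8 protein gene (AT5G59850, 0.50), the α-xylosidase *XYL1* (0.50), the nucleoside diphosphate kinase *NDPK1* (0.49) and a B12D protein gene (AT3G48140, 0.49). The median correlation over those genes was -0.02. For *TUA4*, looked at after its spread was seen, the closest were the β-glucosidase *PYK10* (0.85), a GDSL lipase gene (AT1G54010, 0.85), the extensin-like *ELP* (0.81) and *XTH31*, a xyloglucan-modifying enzyme (0.80).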

How the data were processed

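RNA of 12 dry seed libraries and 384 single seeds of Col-0 was measured by 3′ RNA-seq with molecular identifiers. The authors mapped 55-nt reads with STAR 2.7.8a to TAIR10 and deposited raw counts per gene. The dry libraries are columns of 1 multiplexed sample, assigned by column name. Reads without a gene made up 9.76% and ambiguous reads 0.256% of the single-seed totals, and both stayed out of library sizes. No 2 libraries or seeds held identical counts.

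Single-seed counts were summed per library. Counts were tested with edgeR 4.0.16 in R 4.3.3 (TMM factors, quasi-likelihood test, two-sided, Benjamini-Hochberg over all tested genes, threshold 0.05), with 8234 dry genes and 6754 single-seed genes that averaged 1 count per seed or more and correlated at most 0.3 with the intergenic share in each condition. The study's methods set this filter on read numbers, and shares were used here. Spread was the excess CV per library of seeds thinned to 20000 counts, log2 with 0.1 added, tested with limma 3.58.1, and excess CVs given as levels used all counts of these seeds. DESeq2 1.42.0, other scalings, filters and left-out libraries were alternatives. So was a Wilcoxon test on single seeds, which takes the seeds of a library as replicates. Scripts were tested on simulated data. Sequences came from the TAIR10.1 genome and RefSeq annotation.

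The study's sorting limits give the 3 sizes for each of 4 seed pools, so dry libraries with the same number were taken as 1 pool. Their deviations from the group means correlated at 0.0155 on average (-0.00505 for other pairs).

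The 10 genes, the gene lists and the tests were chosen with earlier results of these data known. Values are given for all 10, for the 3 called genes of lowest adjusted p per list and comparison, and for the 5 genes closest to the most abundant member. Genes named outside this rule are *TUBG2*, *TUA5* in the single seeds, and those closest to *TUA4*.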

Additional observations from a re-analysis of the deposited data

Results flagged for a closer look

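In 6 of the 25 groups of 4 dry libraries with a count, 1 library lay far from the other 3 by Dixon's ratio of gap to range. *TUA3* measured 42.0 CPM (38 counts) in the large seeds of pool 1, beside 28.3 to 29.0 CPM in the other pools (chance gives such a gap in about 1 in 20 groups). The other 5 rest on 1 to 4 counts in a library beside 0 in the other 3, where the ratio is always at its highest and that rate does not apply: *TUA4* in large seeds of pool 4 (1.01 CPM), *TUB8* in small seeds of pool 2 (2.01 CPM), and in medium seeds of pool 2 *TUB5* (1.34 CPM), *TUB6* (2.68 CPM) and *TUB8* (0.669 CPM). They are given as values and were not followed further.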

How the results depend on the processing

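Of all member values and counts under the alternatives, 1015 values and 165 counts kept their side of the threshold. No value that was called changed sign, and 88 of the 1023 values, from 28 of the member comparisons and not called in either fit, did. Between small and large dry seeds the count of called members went from 0 to 1 with upper-quartile factors, with the small and large libraries alone and without small pool 4, and to 2 with library totals (chosen after seeing the data), and between small and large seeds at 7d24h from 0 to 1 without small library 2. Over the fits that left out 1 library the counts were 0 to 1 in those 2 comparisons, 9 to 9 for the rises and 0 to 0 elsewhere. *TUB2* and *TUA3* lost the large-seed rise at 20000 counts per seed (7 of 9 called). The cause was not tested.

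With the seed pool or the library number as a block, the counts of called members stayed at 0, and at 9 for the rises. Libraries with the same number shared only a number in the single-seed experiment (5 of 18 correlations over 0.1), where the block took the genes called at 7d24h from 86 to 214. Counts over all genes moved by more than 1.5 times (the reported count in parentheses): 707 to 2756 (1211) for dry small against large, 121 to 723 (289) for small against medium, 5 to 31 (12) for medium against large, 7 to 65 (22) at 3d, 11 to 396 (86) at 7d24h, 8 to 66 (20) for the interaction, 2393 to 7923 (4449) and 2951 to 8483 (4723) for the rises, 0 to 64 (6) and 0 to 378 (0) for the change of spread, and 0 to 10 (0) for spread by size. The 5 members with 0 to 4 counts in each dry library were not tested there. The count of 65 at 3d came from the Wilcoxon test that took single seeds as replicates, so it does not rest on the spread between libraries. The next highest at 3d was 58, without the intergenic filter.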
